A study of Mus musculus with 2 samples.

Results

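Coagulation factors VII and X are encoded by F7 and F10, neighbouring genes on mouse chromosome 8 in a dense stretch that also holds genes of unrelated function. The stretch described here holds 10 genes in genomic order, Mcf2l, F7, F10, Proz, Pcid2, Cul4a, Lamp1, Grtp1, Adprhl1 and Dcun1d2, out of 23309 rows in the deposited gene table. They were matched by symbol, and each matched a single row. The set was chosen on its position and on the measured values themselves, the FPKM with vehicle and with 4OHT, so the values below describe the stretch and are no independent evidence about it. On build mm9 the 10 deposited loci run from 12915893 to 13322924 on chromosome 8, a span of 407 kb.

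Expression was measured by RNA sequencing in cultured mouse haematopoietic progenitors. All cells had the genotype Cebpaf/f;CreER, meaning loxP-flanked Cebpa alleles and a Cre recombinase activated by 4-hydroxytamoxifen (4OHT). All were lineage-depleted bone marrow cells transduced with retroviruses for tagged Hoxa9 and Meis1 (MIGR1-HA-Hoxa9 and MIGR1-Flag-Meis1) and kept in interleukin-3. One group received ethanol, the solvent of 4OHT, and the other received 4OHT at 5 nM, each for 72 h. The age and number of the donor mice, and what drives CreER, are missing from the sources used here, and no 4OHT-treated cells with intact Cebpa were analysed, so loss of Cebpa and other effects of 4OHT or Cre cannot be told apart. Each group is 1 deposited sample that joins 2 replicates, so each gene has 1 value per condition, with no spread between replicates and no test of its own here.

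Values are FPKM, fragments scaled by transcript length and by library size, which can therefore be compared between genes. They summed to 684536 with vehicle and 673516 with 4OHT, and the read depth behind them is unknown. A gene is called lower or higher here when the authors' deposited table gives it a tested status and a q under 0.05. Cebpa, the targeted gene, fell from 109 to 42.8 FPKM (q = 0.00165, the authors' deposited table). Over all 11953 tested rows, 3.11% were called lower and 2.8% higher. Counts of called genes in the short lists below are to be read beside these shares. Of 7 progenitor markers, all 7 were measured at 1 FPKM or more, 3 were called higher and 1, Cebpa itself, lower. Kit rose from 20.1 to 32.8 FPKM, Cd34 from 284 to 493 FPKM and Flt3 from 10.3 to 23.1 FPKM. Mpo had 496 and 603 FPKM, Myb 152 and 149 FPKM and Spi1 99.8 and 81.3 FPKM, none of them called. Of 9 macrophage and monocyte markers, 5 were called lower and 1 higher, none was at 0, and their summed level was 938 FPKM with vehicle and 611 FPKM with 4OHT. Part of the clotting genes' known expression is in macrophages, and whether the shift in these progenitor and macrophage markers contributed to the values below was not tested.

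Factor VII is a vitamin K-dependent serine protease. Bound to tissue factor on a cell surface it starts clotting by cleaving factor X, and activated factor X, with factor V as its cofactor, turns prothrombin into thrombin. Most of both plasma proteins comes from hepatocytes, and macrophages are a known extrahepatic source. Protein Z, from the adjacent Proz gene, is a relative that has lost protease activity and assists the inhibition of activated factor X. The rest of the stretch serves other tasks: Mcf2l encodes a guanine nucleotide exchange factor of small GTPases, Pcid2 a protein of mRNA export, Cul4a the scaffold of a ubiquitin ligase, Lamp1 an abundant lysosomal membrane protein, Grtp1 a TBC-domain protein, Adprhl1 a relative of the ADP-ribosylhydrolases, and Dcun1d2 a factor that helps attach NEDD8 to cullins.

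In genomic order, the calls fell into blocks. Mcf2l, F7 and F10 were called lower, the next 3 genes (Proz, Pcid2 and Cul4a) were not called, Lamp1, Grtp1 and Adprhl1 were called lower, and Dcun1d2 was not called. That gives 6 of 10 called lower and 0 called higher by the authors' deposited q, where 3.11% of the 11953 tested rows were called lower and 2.8% higher. No reading is made of that contrast, because the same values chose the genes. All 6 carried the authors' second flag as well, which in the deposited table separates called rows at a fold of 1.5. The 4OHT value was below the vehicle value in 10 of 10 genes, also after each condition was scaled to equal totals or to a median ratio of 1. In bulk RNA, fewer cells that express a gene and less RNA per cell cannot be told apart.

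**Figure D1:**
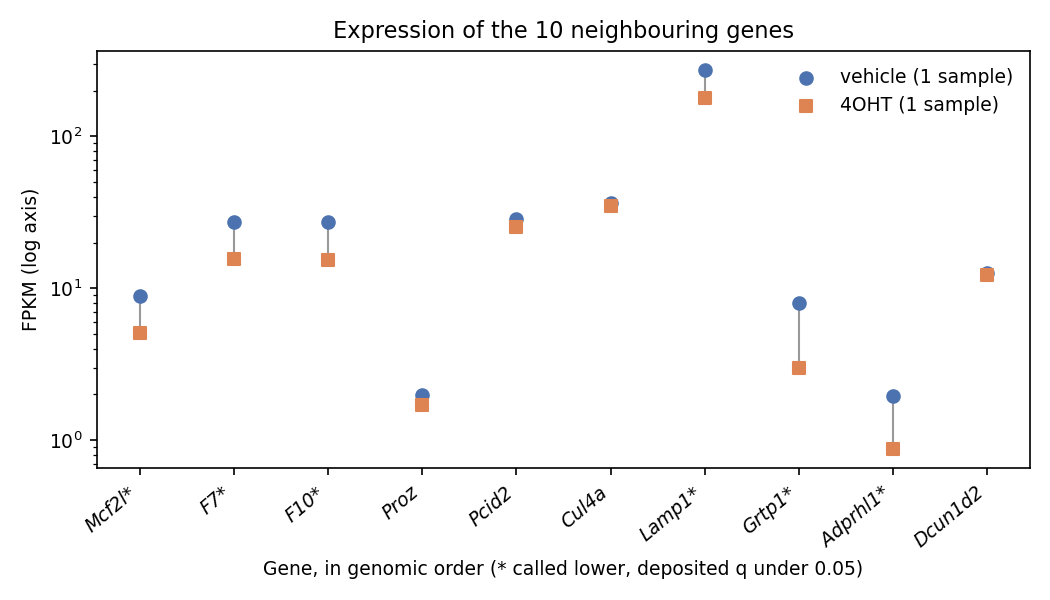
FPKM (log axis) of the 10 genes in genomic order, with vehicle (circles) and with 4OHT (squares), 1 sample per condition joined by a line; asterisks mark genes called lower. The lines are long at Mcf2l, F7, F10, Lamp1, Grtp1 and Adprhl1, and short at Proz, Pcid2, Cul4a and Dcun1d2.

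The pair of clotting proteases had nearly the same level in each condition. F7 (mm9 chromosome 8, 13026034 to 13035809) had 27.4 FPKM with vehicle and 15.6 FPKM with 4OHT. F10 (13037308 to 13056676) had 27.1 and 15.4 FPKM. F7 stood at 1.01 times F10 in both conditions. F7 kept 56.8% and F10 57.0% of its vehicle level, and for each the authors' deposited table gives q = 0.00165. Their log2 ratios of 4OHT to vehicle were -0.82 and -0.81. The deposited loci lie 1498 bases apart.

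Proz, the gene of protein Z, was low in both conditions and was not called. The locus (13060908 to 13075006) starts 4.23 kb beyond F10, and the gene had 1.97 FPKM with vehicle and 1.71 FPKM with 4OHT (q = 1.00, the authors' deposited table). Its log2 ratio of -0.21 was 0.61 away from that of F10. Detection of small changes is limited at this level: among 534 tested rows within 1.25 times its FPKM, the smallest fall that was called had a log2 ratio of -0.74. That was only the smallest of the called falls, so whether a change of the size seen at F7 would have been called at Proz is unknown. Adprhl1, at 1.95 FPKM with vehicle, had a log2 ratio of -1.16 and q = 0.0324 (the authors' deposited table).

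The sequence just before the start site is shown for F7 and F10 since these adjacent genes matched in level and in change. These are the 250 bases upstream of the RefSeq start on GRCm38.p6, plus strand, chr8:13025784-13026033 for F7 and chr8:13037058-13037307 for F10, with CpG dinucleotides in capitals.
F7: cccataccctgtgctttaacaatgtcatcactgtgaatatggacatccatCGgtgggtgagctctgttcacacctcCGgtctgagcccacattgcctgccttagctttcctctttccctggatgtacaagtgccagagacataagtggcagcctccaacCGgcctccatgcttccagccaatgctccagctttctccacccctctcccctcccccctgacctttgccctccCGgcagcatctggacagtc
F10: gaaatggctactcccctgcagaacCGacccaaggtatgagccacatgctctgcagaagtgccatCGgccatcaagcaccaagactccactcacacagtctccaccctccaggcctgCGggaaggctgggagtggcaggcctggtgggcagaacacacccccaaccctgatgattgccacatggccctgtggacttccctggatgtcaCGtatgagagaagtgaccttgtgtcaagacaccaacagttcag

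Both stretches hold 4 CpG dinucleotides. Over the whole RefSeq window, which adds 50 bases after the start, each had 5, against a median of 7 over 32851 windows. RefSeq windows were found for all 10 genes, with 6 for Mcf2l and 1 for each of the others. The C/EBP-type letters TTGCNNAA, searched on both strands, occurred in none of those windows and in 10.8% of all windows of that length. That says only that these letters are absent from these 300 bases.

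Mcf2l, upstream of F7, moved like the clotting pair. The gene (12915893 to 13020509), whose product activates small GTPases such as Cdc42, had 8.91 FPKM with vehicle and 5.11 FPKM with 4OHT (q = 0.00165, the authors' deposited table). It kept 57.4% of its vehicle level. Its log2 ratio of -0.80 was 0.014 from that of F7, across a gap of 5.52 kb. Its level was below those of F7 and F10 in both conditions, while the 3 ratios nearly coincided. Among other exchange factors of small GTPases, none of the 4 tested genes was called. Vav1, an exchange factor of blood cells, had 33.9 and 36.7 FPKM, Trio 14.1 and 12.1 FPKM, Vav3 13.8 and 14.0 FPKM and Vav2 4.44 and 5.44 FPKM. Mcf2, a close relative, was below 1 FPKM in both conditions.

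Pcid2 and Cul4a, which stand between the blocks, were expressed and not called. Pcid2 (13077525 to 13105343) had 28.4 FPKM with vehicle and 25.2 FPKM with 4OHT, a log2 ratio of -0.17. Cul4a (13105721 to 13147939) had 36.6 and 34.6 FPKM, a log2 ratio of -0.08. For both the authors' deposited table gives q = 1.00. Both were above or near F7 and F10 in level. Of tested rows within 1.25 times the level of either gene, the smallest fall called had a log2 ratio of -0.50.

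These genes face away from each other, with RefSeq start sites 280 bases apart on opposite strands, and their windows share 221 bases. The Cul4a side, which holds the shared bases, is shown for its contrast with F7 and F10, as the 250 bases upstream of the start on GRCm38.p6, plus strand, chr8:13105373-13105622, with CpG dinucleotides in capitals.
Cul4a: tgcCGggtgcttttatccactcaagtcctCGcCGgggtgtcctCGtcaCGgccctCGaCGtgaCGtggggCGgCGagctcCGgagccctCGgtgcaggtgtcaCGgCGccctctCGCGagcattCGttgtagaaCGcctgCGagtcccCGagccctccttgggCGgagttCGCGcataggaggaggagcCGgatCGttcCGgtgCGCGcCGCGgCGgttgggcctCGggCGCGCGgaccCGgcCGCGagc

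It holds 38 CpG dinucleotides, against 4 in the same stretch of F7 or F10. Over the full windows the 4 genes that were not called had 8 (Proz), 29 (Dcun1d2), 36 (Pcid2) and 43 (Cul4a) CpG dinucleotides. Those called lower had 5 for F7 and F10, 6 for Adprhl1, 19 for Lamp1, 26 for Grtp1 and 3 to 22 over the windows of Mcf2l. The ranges overlap at Proz, and the Pcid2 and Cul4a windows share 221 bases, so their counts are not separate. The values behind the calls also chose the 10 genes, and whether CpG content goes with the call was not tested.

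Other genes of the same machinery were not called either. Of 22 further genes of cullin ligases and the NEDD8 pathway, 22 were tested, none was called, and the median log2 ratio with 1 FPKM added to each value was 0.00017. Nedd8 had 291 and 289 FPKM, the adaptor Ddb1 172 and 176 FPKM, the conjugating enzyme Ube2m 136 and 124 FPKM and Rnf7 104 and 103 FPKM. Of 6 further genes of mRNA export none was called. With 3.11% of all tested rows called lower and 2.8% higher, no call among 22 or among 6 genes is near the share over the table. Shfm1 had 593 and 517 FPKM, Cetn3 83.6 and 83.9 FPKM, Nxf1 59.7 and 59.0 FPKM and Mcm3ap, the scaffold of the TREX-2 complex that Pcid2 joins, 58.2 and 62.3 FPKM.

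Lamp1 was by far the most abundant of the 10 and lost the most in absolute terms. Lamp1 (13159135 to 13175338) had 274 FPKM with vehicle and 178 FPKM with 4OHT, which left 64.8% (q = 0.00310, the authors' deposited table). Its log2 ratio was -0.63, the smallest change among the 6 called genes. It made up 64.2% of the summed vehicle level of the 10 genes, which was 427 FPKM with vehicle and 292 FPKM with 4OHT. Without Lamp1 the sums were 153 and 114 FPKM. Lamp2, the gene of its close partner in the lysosomal membrane, had 86.5 and 86.3 FPKM. Of 6 tested genes for lysosomal membrane proteins other than Lamp1, 1 was called lower, the macrophage marker Cd68, from 34.6 to 22.7 FPKM (q = 0.0227, the authors' deposited table). Cd63 had 518 and 661 FPKM, Laptm5 278 and 280 FPKM and Scarb2 21.7 and 20.0 FPKM, and none of these was called.

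Grtp1 had the largest relative fall of the stretch. The gene (13176869 to 13200624) had 7.99 FPKM with vehicle and 2.99 FPKM with 4OHT, which left 37.5% (q = 0.00165, the authors' deposited table). Its log2 ratio was -1.42, rank 107 among the 372 rows called lower. Of 8 tested TBC-domain genes listed as relatives, 1 was called lower, Evi5, a GTPase-activating protein, from 3.65 to 2.15 FPKM (q = 0.00806, the authors' deposited table). Tbc1d10c had 22.8 and 30.6 FPKM, Tbc1d2b 19.3 and 14.8 FPKM, Tbc1d14 16.6 and 20.2 FPKM and Tbc1d10b 18.7 and 18.6 FPKM.

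Lamp1 and Grtp1 run towards each other on opposite strands. Their deposited loci end 1.53 kb apart, but in GENCODE M21 on GRCm38 the annotated genes overlap by 3317 bases, of which 249 are exonic in both. No source used here states if libraries were stranded, and reads from the overlap could be counted for either gene. How much this adds to the Grtp1 value was not tested. A microRNA row that shares the deposited locus of Grtp1 had 49.9 FPKM with vehicle, was listed at 0 with 4OHT and was not tested by the authors. FPKM is scaled by transcript length, and how many fragments lie behind the value of so short a transcript is unknown.

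Upstream sequence of the pair is shown for the repeated motifs it holds. The stretches are the 250 bases before the RefSeq starts on GRCm38.p6, chr8:13158911-13159160 on the plus strand for Lamp1 and chr8:13200625-13200874 on the minus strand for Grtp1. Capitals mark CACGTG, the core of the E-box that lysosomal genes often carry, in Lamp1. In Grtp1 they mark CCGCCC, the reverse complement of the GC box GGGCGG, and a pair of matches overlaps.
Lamp1: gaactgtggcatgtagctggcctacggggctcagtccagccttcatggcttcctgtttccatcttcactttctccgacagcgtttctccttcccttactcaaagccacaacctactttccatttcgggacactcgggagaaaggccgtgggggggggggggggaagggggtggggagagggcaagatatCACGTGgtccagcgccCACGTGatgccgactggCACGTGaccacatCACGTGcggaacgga
Grtp1: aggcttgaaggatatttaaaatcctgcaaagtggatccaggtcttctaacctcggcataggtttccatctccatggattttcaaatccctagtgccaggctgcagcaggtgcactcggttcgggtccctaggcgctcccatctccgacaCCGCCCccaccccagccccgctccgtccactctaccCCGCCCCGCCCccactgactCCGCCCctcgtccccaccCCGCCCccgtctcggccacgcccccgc

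Lamp1 held 4 E-box matches within its last 61 bases before the start, and 7.15% of all RefSeq windows held at least 1. Adprhl1 was the other gene of the stretch with a match, at 49 bases before its start. Grtp1 held 5 GC boxes, a motif found in 35.7% of windows. The GC box was also found upstream of Mcf2l, Pcid2, Cul4a and Dcun1d2, so it was present on both sides of the call. The ETS-type letters AGGAAG, searched on both strands, occurred near Mcf2l, Proz and Lamp1 and in 35.4% of all windows. The E-box was added to the search after the Lamp1 sequence had been seen. A match of letters describes the sequence and is not a measured binding site.

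Adprhl1 was called at the lowest level of the stretch. The gene (13235662 to 13254162), best known from heart muscle, had 1.95 FPKM with vehicle and 0.871 FPKM with 4OHT (q = 0.0324, the authors' deposited table). The raw log2 ratio was -1.16, and 44.6% of the vehicle level was left. Proz had almost the same vehicle level and kept 86.7% of it. None of the 3 other genes for ADP-ribose hydrolases was called. Adprh had 57.4 and 54.2 FPKM, Adprhl2 27.0 and 29.7 FPKM and Parg 11.4 and 11.99 FPKM.

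Dcun1d2 ended the stretch without a change that was called. It had 12.6 FPKM with vehicle and 12.2 FPKM with 4OHT, a log2 ratio of -0.05, the smallest of the 10 (q = 1.00, the authors' deposited table). It shares its deposited locus (13255963 to 13322924) with Tmco3, a gene on the opposite strand, which had 7.98 and 8.75 FPKM. Between Adprhl1 and Dcun1d2, over a gap of 1800 bases, the log2 ratio differed by 1.11, the largest step between neighbours in the stretch. At the F7 and F10 junction the step was 0.0040.

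**Figure D2:**
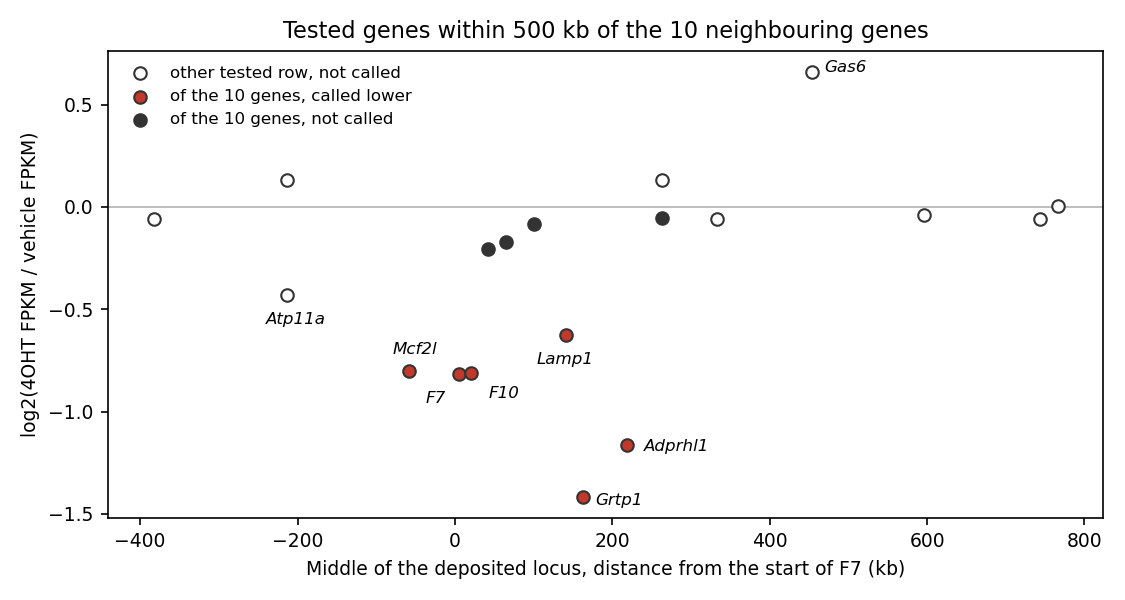
log2 ratio of 4OHT to vehicle FPKM against the middle of each deposited locus, in kb from the start of F7, for the 19 tested rows within 500 kb of the stretch. The 6 red points, at -0.63 to -1.42, all belong to the 10 genes, and the named flanking genes on either side sit near 0 apart from Atp11a and the low-level Gas6.

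Genes on either side of the stretch were not called. Within 500 kb of its ends the table holds 19 other rows, including Tmco3 and the microRNA row, whose loci lie inside the stretch. Of the 19, 9 were tested and 10 were below 1 FPKM in both conditions. Gas6 was in both groups and the microRNA row in neither. By the authors' deposited q none of the 9 was called lower or higher, and 1, Atp11a, had an unadjusted p under 0.05. With 3.11% of all tested rows called lower and 2.8% higher, a count of 0 among 9 is near the share over the table. Atp11a, a phospholipid flippase gene that precedes Mcf2l, had 14.1 FPKM with vehicle and 10.5 FPKM with 4OHT (q = 0.105, the authors' deposited table). Its log2 ratio of -0.43 lay between those of the called and the uncalled genes of the stretch.

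The other 6 measured genes of known name lay between -0.06 and 0.13 on the log2 scale. On the left, Tubgcp3, of the gamma-tubulin complex, had 22.0 and 21.1 FPKM. On the right, after Tmco3, Tfdp1, the partner of E2F factors, had 198 and 190 FPKM and Rasa3 49.1 and 47.8 FPKM. Cdc16, of the anaphase-promoting complex, had 39.3 and 37.7 FPKM, and Upf3a, of nonsense-mediated decay, 19.4 and 19.5 FPKM. The nearest called rows beyond the stretch were both higher with 4OHT. They were Col4a1, 1603 kb to the left (0.355 and 0.770 FPKM), and Thsd1, 10015 kb to the right (0.965 and 2.30 FPKM).

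**Figure D3:**
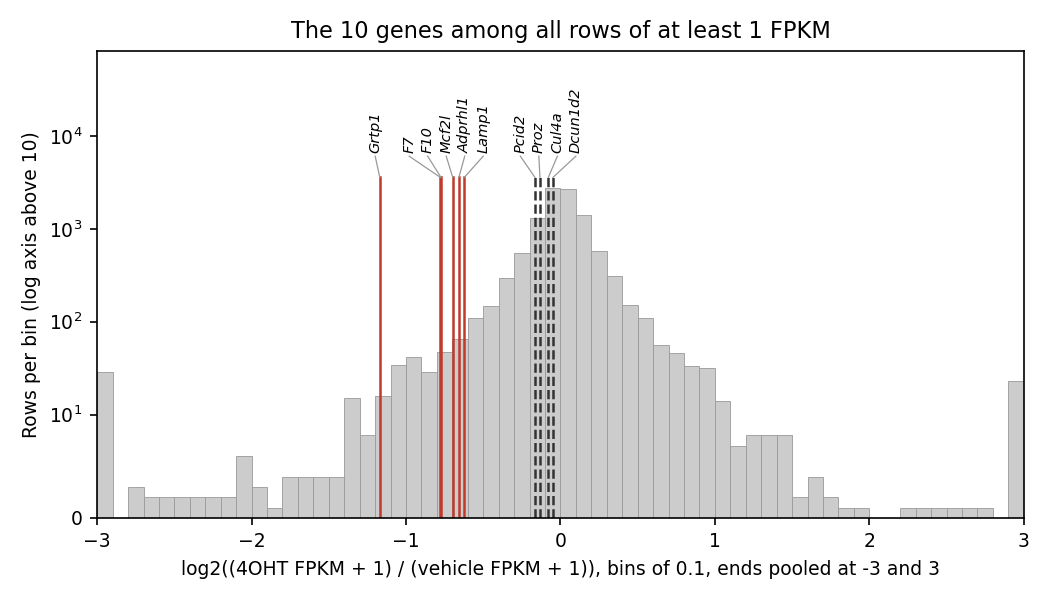
Number of rows (log axis above 10) per bin of log2 ratio, the ends pooled, with 1 FPKM added to each value, for the 10989 rows of at least 1 FPKM; solid red lines mark the 6 genes called lower and dashed lines the 4 not called. The called genes lie between -0.62 and -1.17, and the others between -0.05 and -0.17.

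Set among all measured rows, the 6 called genes lay in the low tail, though the same values had chosen the 10 genes. With 1 FPKM added to each value, which shrinks the change of low genes, the median log2 ratio of the 10 genes was -0.64, and that of the 10989 rows of at least 1 FPKM was 0.00031. The middle 50% of those rows lay between -0.10 and 0.10. Cul4a, at -0.08, and Dcun1d2, at -0.05, were inside that range. On that scale 2.05% of measured rows had a ratio below that of F7, 0.883% below that of Grtp1 and 36.5% below that of Dcun1d2. On the raw scale the 6 called genes had a median log2 ratio of -0.81 and the 4 others of -0.13.

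For each of F7 and F10, the 3 called genes nearest in level were looked up, and both gave Stc2, Abhd5 and Prepl, from other chromosomes. Likeness was the straight-line distance in the log2(FPKM + 1) values of the 2 samples, over the 604 called rows outside the stretch that reached 1 FPKM and carried a single symbol of a gene other than a predicted gene or small RNA. Stc2, which encodes a secreted glycoprotein hormone, had 27.0 and 15.4 FPKM, at a distance of 0.026 from F7 and 0.0074 from F10. Abhd5, a co-activator of fat breakdown, had 26.7 and 15.5 FPKM and Prepl 27.4 and 16.5 FPKM. The likeness rests on 2 values per gene.

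Elsewhere in the clotting system, called genes went both ways. Of 46 genes of clotting, vitamin K-dependent proteins, their receptors and inhibitors, and fibrinolysis outside the stretch, 29 were below 1 FPKM in both conditions and 19 were tested. Of the 19, 4 were called lower, 3 higher and 12 not called, where 3.11% of all tested rows were called lower and 2.8% higher. Prothrombin (F2), the 3 fibrinogen genes, F11 and F12 were listed at 0 in both conditions. F3, tissue factor, the receptor of factor VII, had 0.157 and 0.0783 FPKM and was not tested. F5, the cofactor of factor X, had 1.21 and 0.936 FPKM and was not called.

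The cascade's 1 called gene was F13a1, the clot-crosslinking subunit of factor XIII and a monocyte marker, which fell from 53.6 to 7.17 FPKM (q = 0.00165, the authors' deposited table). Enzymes that make vitamin K-dependent proteins functional were expressed and not called. Ggcx, the carboxylase, had 3.78 and 3.12 FPKM, Vkorc1, which recycles vitamin K, 85.2 and 82.9 FPKM, and Vkorc1l1 37.7 and 41.1 FPKM. Gas6, a vitamin K-dependent ligand of TAM receptors on the same flank of chromosome 8, had 0.216 and 0.341 FPKM.

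Receptors of clotting proteases were the genes that rose. F2r, the main thrombin receptor, rose from 50.9 to 76.6 FPKM (q = 0.00911, the authors' deposited table). F2rl3, the thrombin receptor PAR4, rose from 11.98 to 23.3 FPKM and Procr, the receptor of protein C, from 0.741 to 2.25 FPKM (each at q = 0.00165, the authors' deposited table). F2rl2 had 24.5 and 24.3 FPKM. Tfpi, the inhibitor of the tissue factor and factor VII complex, had 24.2 FPKM in both conditions, and Thbd and Serpinb2 were not called either. Serpine2, a protease inhibitor that blocks thrombin and plasminogen activators, fell from 15.3 to 3.02 FPKM (q = 0.00165, the authors' deposited table).

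Genes of fibrinolysis, which dissolves clots, included 2 called lower. Anxa2, a receptor for plasminogen and its activator, fell from 295 to 138 FPKM (q = 0.00165, the authors' deposited table). Plau, urokinase, fell from 1.00 to 0.434 FPKM (q = 0.0309, the authors' deposited table). S100a10, the partner of Anxa2, had 120 and 118 FPKM, and Plaur, the urokinase receptor, 22.9 and 16.2 FPKM (q = 0.106, the authors' deposited table).

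**Figure D4:**
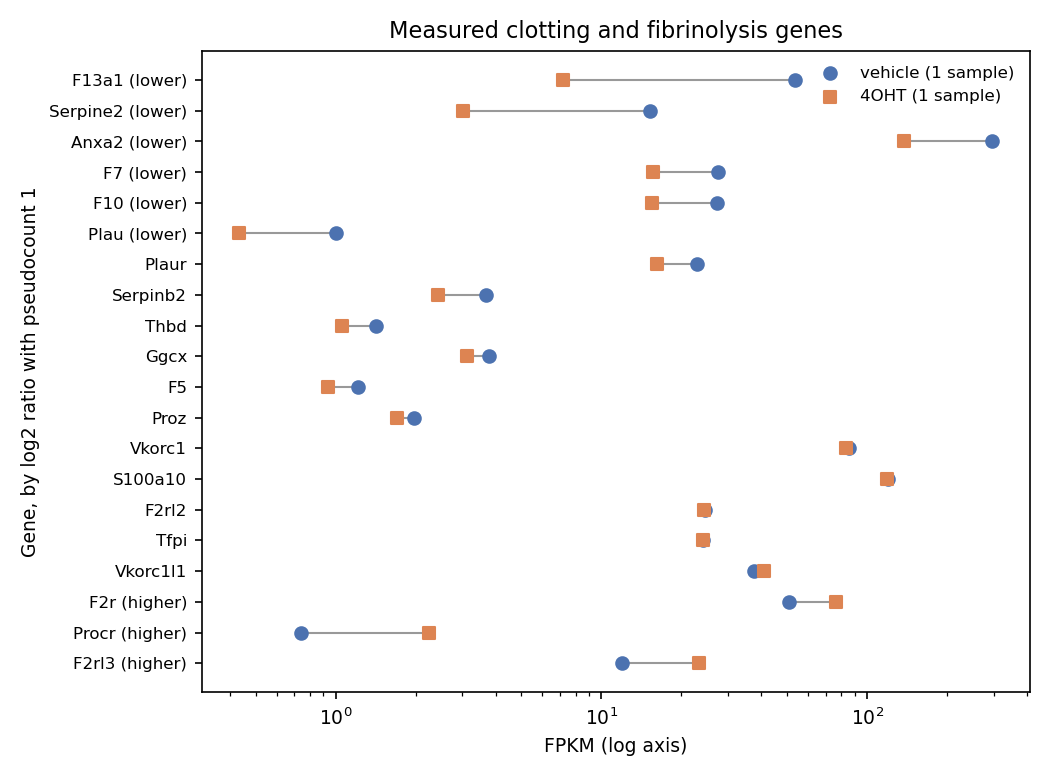
FPKM (log axis) with vehicle (circles) and 4OHT (squares), 1 sample per condition, for each clotting and fibrinolysis gene of at least 1 FPKM, F7, F10 and Proz included, ordered by log2 ratio with 1 FPKM added to each value. F13a1, Serpine2 and Anxa2 lie above F7 and F10, and F2r, Procr and F2rl3, at the bottom, were higher with 4OHT.

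Markers of the cells known to make these factors were measured beside them. Of 9 hepatocyte markers, 7 were below 1 FPKM, with Ttr and Ahsg at 0 in both conditions and Alb at 0.00827 and 0 FPKM. Of the other two, Trf, transferrin, had 121 and 138 FPKM and Hnf4a, a transcription factor, 15.4 and 20.7 FPKM, and neither was called. Among macrophage and monocyte markers, Itgam fell from 33.1 to 14.5 FPKM, Cd14 from 16.9 to 8.26 FPKM and Ly6c2 from 551 to 323 FPKM, beside Cd68 and F13a1. Emr1 had 147 and 129 FPKM, Lyz2 99.0 and 104 FPKM and Csf1r 2.84 and 2.55 FPKM, none of them called, and Mrc1 rose from 0.185 to 0.499 FPKM. Of 5 megakaryocyte and platelet genes, 1 was called, Itga2b, which rose from 40.3 to 88.8 FPKM. Pf4 had 10.97 and 10.5 FPKM, Gp9 1.10 and 1.14 FPKM, F5 1.21 and 0.936 FPKM and Ppbp 0.762 and 0.425 FPKM. Of 4 endothelial genes, Pecam1 alone was above 1 FPKM, with 214 and 189 FPKM.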

How the data were processed

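RNA was sequenced from vehicle and 4OHT cells, 1 deposited sample each, grouped by the labels. The submitters' processing notes list Cuffdiff 2.0.2, Bowtie2 2.0.0.7, CASAVA 1.8.2 and the build mm9, with no role for each. The sources used here do not give annotation or strand. Per the file headers, the authors deposited 1 FPKM value per gene and condition, a p-value and q-value, a test score, a fold ratio and a status. Adjusting the p-value over the 11953 tested rows by Benjamini-Hochberg gave the deposited q-value to within 5.28e-07, and 363 rows share the smallest p-value, 5e-05. The score was not used, and log2 ratios were computed from FPKM. Loci are on mm9, with starts written from 1; RefSeq promoter windows and GENCODE M21 are on GRCm38 and gave sequences, strands and overlap lengths.

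The 10 genes, the gene lists and the naming rule (each of the 10, measured or called flanking genes, called list members and up to 4 others of highest level; predicted genes and small RNAs unnamed) were chosen with earlier results of these data known. Of 147 list entries, 144 matched by symbol, 2 by another symbol and 1 repeated a row. Python 3.11.15 and pandas 2.3.3 were used, and the counting steps were tested on simulated data. Depth is unknown, so no counting interval is given.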

Additional observations from a re-analysis of the deposited data

How the results depend on the processing

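No paired analysis was possible because each condition has 1 deposited value that joins both replicates, and for the same reason no replicate could be left out. With q under 0.01, 5 of the 10 genes were called lower, without Adprhl1, and with q under 0.1, or with the adjustment over rows of at least 1 FPKM, 6 were. No flanking row was called in a narrower or a wider window. With 0.1 FPKM in place of 1 FPKM added, the log2 ratio of Grtp1 went from -1.17 to -1.39 and that of Adprhl1 from -0.66 to -1.08. The other 49 of 51 alternatives moved log2 ratios by at most 0.1 or counts by at most 1.5 times. Unknown depth limits the low genes, Proz and Adprhl1, most.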

Other observations

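Runs of called neighbours were counted over the table after the values had been seen. In the order of the deposited loci, 8 runs held 3 or more successive tested rows called the same way, 5 of them lower and 3 higher. The stretch around F7 holds 2 of the 5 lower runs, Mcf2l with F7 and F10 over 141 kb and Lamp1 with Grtp1 and Adprhl1 over 95.0 kb. The same values chose the 10 genes, so no reading is made of that count. The lower run on chromosome 5 is made of guanylate-binding protein genes, Gbp8, Gbp9 and Gbp4, with a summed 9.50 FPKM with vehicle and 0.143 FPKM with 4OHT. These relatives are similar in sequence, and how reads were assigned among them was not tested.

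Chromosome 8 outside the stretch had 644 tested rows, of which 23 (3.57%) were called lower and 23 higher. Its median log2 ratio with 1 FPKM added was -0.0022. A run of higher calls, Myo16, Irs2 and Col4a1, lies to the left of the stretch.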
